A study of Mus musculus with 9 samples.

Results

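The choroid plexus epithelium genes described here are Ttr, Kl, Sostdc1, Kcne2, Kcnj13, Clic6, Slc4a5, Aqp1, Folr1, and Otx2, 10 of the 38621 genes in the deposited table. They were selected by name as genes of choroid plexus secretion, transport, and identity, and were selected on RPKM values of these mice, low in the feb group for several of them, that were known when they were named. Their differences between the feb group and the other groups are therefore given as a description, with no p-value for a single gene, and counts of these genes under a threshold test nothing about them. Brain RNA of male C57BL/6 mice was sequenced in 3 groups with 3 mice each. Sham mice are labeled untreated, and the study's methods state that saline was injected into the brain. ICH (intracerebral hemorrhage) mice received an injection of their own blood into the brain, and feb mice were gavaged with febuxostat, a xanthine oxidase inhibitor, once daily on consecutive days before the same blood injection. The groups share strain and tissue, but the dissected region, the time after injection, and the age of the mice are not given in the sources used here, and no group received febuxostat without ICH.

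The choroid plexus is a frond of epithelium over fenestrated capillaries that lies inside the brain ventricles and secretes cerebrospinal fluid. Its epithelium moves sodium, chloride, bicarbonate, and water from blood to ventricle, forms the barrier between blood and cerebrospinal fluid, and releases carrier proteins and hormones, of which transthyretin (Ttr) is by far the most abundant. The plexus is a small structure that hangs free in the ventricle, so a brain sample holds its RNA only in proportion to the plexus tissue taken with it. In bulk tissue, fewer cells of a type and less RNA per cell cannot be told apart.

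Expression is given as RPKM, the reads of a gene divided by the length of its exons and by all reads counted in that mouse. Between 23065757 and 29538009 reads were counted per mouse, and for an exon length of 1 kb, 3 reads equal an RPKM of 0.102 to 0.130 depending on the mouse. The libraries did not hold equal shares of brain regions. Sham replicate 1 stood apart with a summed RPKM of 17.8 over 5 hindbrain genes (among them Hoxb3, Hoxb4, and Hoxb5), against 0.0404 to 0.557 in the other 8 mice. The 6 striatal genes summed to 38.8 to 295 in sham mice, 131 to 299 in ICH mice, and 93.6 to 229 in feb mice. Counts of called genes in comparisons with the sham group are therefore also given without sham replicate 1.

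Promoter sequence was examined because the genes varied together. RefSeq windows of GRCm38.p6, with 250 bases before and 50 bases after a transcription start, were matched by symbol for 6 of the 10 genes (Aqp1, Kcne2, Kcnj13, Kl, Otx2, and Slc4a5), in 10 windows. Clic6, Folr1, and Sostdc1 had no entry, and the window of Ttr is not shown. The OTX motif (TAATCC, or GGATTA on the other strand) was present in 1 of the 10 windows, that of an Otx2 start, and in 7.06% of all 32851 windows. The RFX motif (GTTGCC, or GGCAAC on the other strand), named for the factors that drive genes of cilia, was present in 4 of the 10 windows, from Aqp1, Kcne2, and Otx2, and in 12.5% of all windows. The TATA motif (TATAAA or TTTATA) was present in 3 of the 10 windows and in 13.6% of all windows. A separate list of further choroid plexus genes, described below, had 41 windows. The OTX motif was present in 4 of these, the RFX motif in 3, and the TATA motif in 8. No motif contains another, and of the 4 Otx2 windows, the pair with the RFX motif overlaps in position. This pair shares a match, which is counted in each window. A match is a description of the letters and not a binding site. The sequences before the starts of Kcne2 and Aqp1 are shown as those of a potassium channel subunit and a water channel with the motif, which is set in capitals, 109 bases before the start in Kcne2 and 111 bases before it in Aqp1.
Kcne2, chr16:92292139-92292388, plus strand: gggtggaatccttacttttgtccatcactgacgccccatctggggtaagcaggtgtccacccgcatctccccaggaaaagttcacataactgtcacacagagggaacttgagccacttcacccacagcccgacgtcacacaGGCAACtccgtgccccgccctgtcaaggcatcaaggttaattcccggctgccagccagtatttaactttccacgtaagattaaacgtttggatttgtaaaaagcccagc
Aqp1, chr6:55336049-55336298, plus strand: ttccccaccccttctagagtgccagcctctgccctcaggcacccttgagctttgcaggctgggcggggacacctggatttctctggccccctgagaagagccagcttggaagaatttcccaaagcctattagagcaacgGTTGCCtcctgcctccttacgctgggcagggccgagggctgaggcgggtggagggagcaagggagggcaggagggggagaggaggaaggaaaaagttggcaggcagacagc

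Together the 10 genes took 0.0491% to 0.134% of the counted reads in sham mice, 0.0617% to 0.127% in ICH mice, and 0.00603% to 0.0142% in feb mice. Ttr, which encodes the carrier of thyroxine and of retinol-binding protein, made up 86.8% to 91.5% of these reads in sham mice, 86.4% to 90.1% in ICH mice, and 48.9% to 69.2% in feb mice. The RPKM of Ttr (chromosome 18) was 1005, 349.6, and 817 in sham mice, 808, 938, and 437 in ICH mice, and 24.2, 50.4, and 78.1 in feb mice. Every feb mouse lay below every mouse of the other groups, with between 780 and 2197 reads. The mean was 728 ± 259.6 (SD, n = 3) for ICH and 50.9 ± 27.0 (SD, n = 3) for feb, 14.3-fold lower.

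Of the other secreted proteins, Kl encodes klotho, the co-receptor of the hormone FGF23, which the plexus also sheds into cerebrospinal fluid. Kl lies on chromosome 5 (GRCm38, 150952607 to 150993817), and its RPKM was 2.07, 1.099, and 1.70 in sham mice, 2.52, 3.19, and 1.58 in ICH mice, and 0.3604, 0.327, and 0.683 in feb mice. The feb mice did not overlap the others, and the feb mean was 18.8% of the ICH mean. Sostdc1 encodes a secreted antagonist of BMP and wnt ligands. Sostdc1 (chromosome 12, 36314169 to 36318452) had an RPKM of 4.64, 1.81, and 3.799 in sham mice, 3.24, 2.04, and 2.38 in ICH mice, and 0.496, 0.520, and 0.768 in feb mice. Again all feb mice were lowest, at 23.3% of the ICH mean and 17.4% of the sham mean.

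Among the channels and transporters, Kcne2, a regulatory subunit of apical potassium channels, had the lowest feb level relative to ICH. Kcne2 (chromosome 16, 92292389 to 92298129) had an RPKM of 5.73, 1.80, and 3.68 in sham mice, 4.02, 4.13, and 3.52 in ICH mice, and 0.1496, 0.291, and 0.613 in feb mice. Its mean was 11.1-fold lower in the feb group than in the ICH group, and the feb values rest on 7 to 25 reads. Slc4a5, a sodium bicarbonate cotransporter of the apical membrane (chromosome 6, 83219828 to 83304945), had an RPKM of 2.02, 0.679, and 1.46 in sham mice, 1.83, 1.43, and 1.03 in ICH mice, and 0.0781, 0.116, and 0.344 in feb mice. Aqp1, the water channel of the apical membrane (chromosome 6, 55336432 to 55348555), had 1.51, 0.539, and 0.921 in sham mice, 1.68, 1.19, and 0.843 in ICH mice, and 0.187, 0.106, and 0.248 in feb mice. The feb mice lay below all other mice in these 3 genes, with means of 12.5% (Slc4a5) and 14.6% (Aqp1) of the ICH mean.

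Clic6 and Kcnj13 kept a larger share of their level. Clic6, of the chloride intracellular channel family (chromosome 16, 92485736 to 92541243), had an RPKM of 11.1, 8.73, and 10.7 in sham mice, 12.3, 13.4, and 10.03 in ICH mice, and 4.85, 3.94, and 7.42 in feb mice. The feb mice lay below all other mice, and the feb mean was 45.4% of the ICH mean. Kcnj13, the inward rectifier potassium channel Kir7.1 (chromosome 1, 87386363 to 87394729), had 3.999, 2.80, and 3.61 in sham mice, 4.89, 6.53, and 3.64 in ICH mice, and 2.65, 2.71, and 3.17 in feb mice. The feb mice lay below all ICH mice, and feb replicate 3 lay within the range of the sham mice, with the mean at 56.7% of the ICH mean and 82.0% of the sham mean. Kcnj13 shares 623 bases, 49.1% of its exon length, with exons of Gigyf2 on the opposite strand, which had an RPKM of 12.9 to 15.6 in all mice. The library kit was stranded, but the use of strand in counting is not given in the sources used here, and the part of Gigyf2 reads in the values of Kcnj13 was not tested.

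Folr1, the folate receptor that carries folate across the plexus (chromosome 7, 101858331 to 101870788), had an RPKM of 2.93, 1.05, and 2.29 in sham mice, 2.81, 4.502, and 1.55 in ICH mice, and 0.263, 0.328, and 0.226 in feb mice. All feb mice were lowest, with 12 to 19 reads and a mean 10.8-fold lower than in the ICH group. Otx2 encodes the homeodomain factor that specifies and maintains the choroid plexus, and neurons of other brain regions also hold it. Otx2 (chromosome 14, 48657679 to 48667644) had an RPKM of 1.73, 0.867, and 1.28 in sham mice, 1.03, 0.772, and 0.866 in ICH mice, and 0.712, 0.6996, and 0.523 in feb mice. The feb mice were again lowest, but the difference from the ICH group was the smallest of the 10 genes, at 72.4% of the ICH mean.

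**Figure D1:**
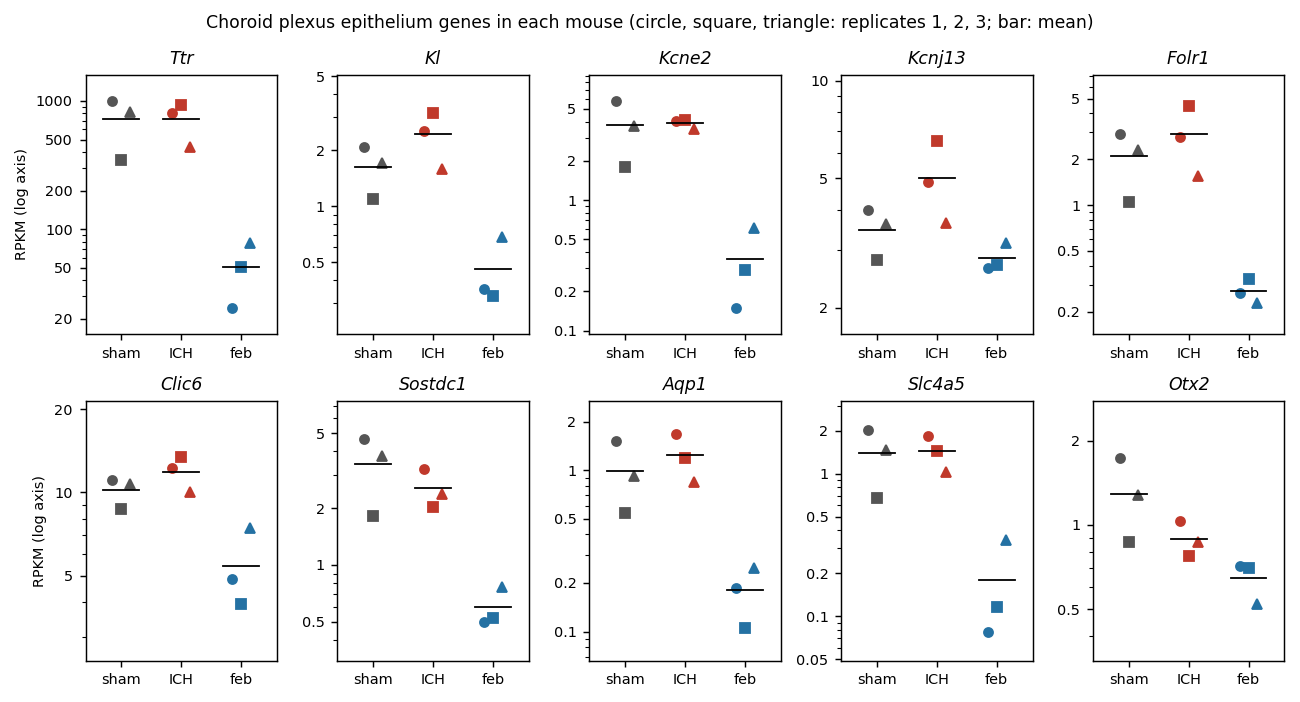
RPKM of each of the 10 genes in each mouse on log axes, by group, with the 3 replicates as circle, square, and triangle and the group mean as a bar. The feb mice lie below all ICH mice in every panel, by a wide gap in Ttr (24.2 to 78.1 against 437 to 938) and by a narrow gap in Otx2 (0.523 to 0.712 against 0.772 to 1.03).

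All 10 genes passed the filter on low values and were among the 29025 genes tested with limma on log2(RPKM + 0.1), a scale that understates the change of genes near an RPKM of 0.1. Genes were called where the p before adjustment was under 0.05 and the fold change exceeded 2. In feb against ICH, 8 of the 10 genes were called, all lower in the feb group, and 1.05% of all genes tested were called lower. The values that chose the genes enter this count, so it is a description. Kcnj13 and Otx2 were not called, with log2 fold changes of -0.76 (standard error 0.22) and -0.41 (standard error 0.26). Kcnj13 fell short of the fold change only, and Otx2 met neither criterion. Clic6, just inside the criteria, had -1.16 (standard error 0.22). Without feb replicate 2, Clic6 was at -0.97 and 7 genes were called. The median log2 fold change of the 10 genes was -2.21, and that of all genes tested was -0.01. The groups did not overlap in all 10 genes, where 10.1% of all genes tested had every feb mouse below every ICH mouse. After Benjamini-Hochberg adjustment over all genes tested, none of the 10 genes passed 0.05 in limma or in voom on the recovered reads, and 0.00689% of all genes did in limma. An unadjusted p under 0.05 was reached by 9 of the 10 with each tool and by 11.1% of all genes in limma.

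Between the feb and sham groups, 7 of the 10 genes were called, all lower in the feb group, and 0.613% of all genes tested were called lower. The feb mice enter this comparison too, so it is described in the same way. The median log2 fold change was -2.08, and that of all genes tested was 0.05. The feb mice lay below all sham mice in 9 of the 10 genes, all except Kcnj13, and 4.9% of all genes tested showed this. Without sham replicate 1, the mouse with the most hindbrain RNA, 7 genes were also called, and without sham replicate 2 it was 9. None passed adjustment in limma or voom (0.00345% of all genes did in limma), and 9 had an unadjusted p under 0.05 in each (8.54% of all genes in limma). With a pseudocount of 1 in place of 0.1, 4 genes were called.

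The ICH and sham groups were compared to ask about the injury without the drug. Here 0 of the 10 genes were called in limma, and 2.53% of all genes tested were called in either direction. The ICH and sham mice overlapped in all 10 genes, where 19.4% of all genes tested had no overlap. For Ttr the log2 fold change was 0.07 (standard error 0.52; limma adjusted p = 0.968), with a 95% confidence interval of -1.12 to 1.26 that includes 2-fold changes in both directions. The log2 fold changes ranged from -0.45 (Otx2) to 0.54 (Kl), with 8 of the 10 genes higher and Otx2 and Sostdc1 lower in the ICH group. Kcnj13 alone had an unadjusted p under 0.05 in limma, as 12.3% of all genes tested did, at a log2 fold change of 0.49 (standard error 0.22; limma adjusted p = 0.404), and in voom there was none. None passed adjustment in either tool, and 0.0241% of all genes did in limma. The count was also 0 without sham replicate 1. The ICH mice are shared with the comparison of feb against ICH, and the sham mice with that of feb against sham.

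**Figure D2:**
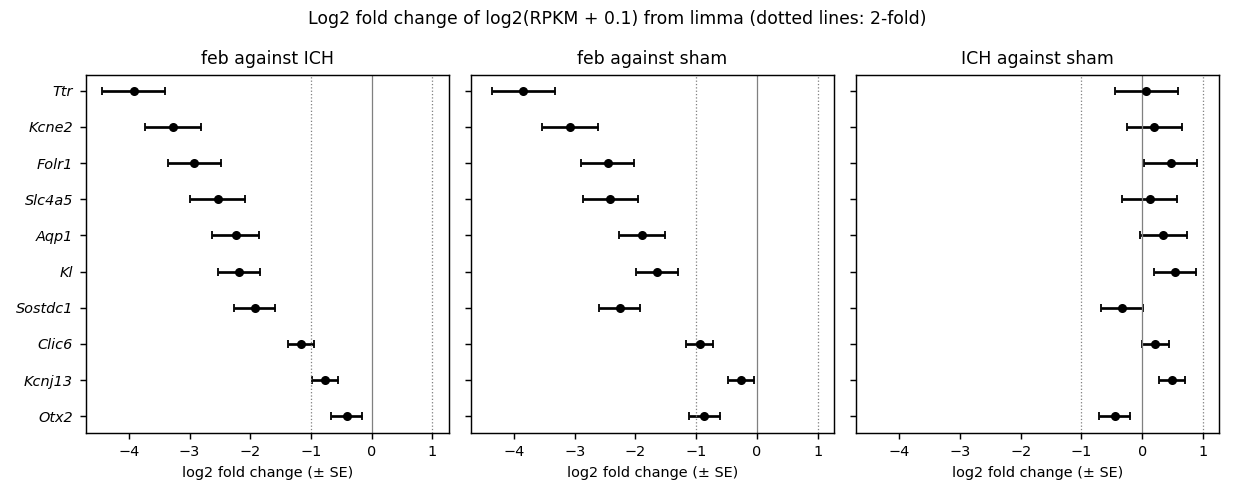
Log2 fold change on the log2(RPKM + 0.1) scale with its standard error for each of the 10 genes in the 3 comparisons, with dotted lines at 2-fold. The points of feb against ICH run from -3.92 (Ttr) to -0.41 (Otx2), while those of ICH against sham lie between -0.45 and 0.54.

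Mice of the same group also differed, and most genes followed the same mouse. Sham replicate 1 was the highest and sham replicate 2 the lowest of the sham mice in all 10 genes. ICH replicate 3 was the lowest ICH mouse in 8 of the 10 genes, the exceptions being Sostdc1 and Otx2, and feb replicate 3 was the highest feb mouse in 8, the exceptions being Folr1 and Otx2. Deviations of log2(RPKM + 0.1) from the group mean had a median Pearson correlation of 0.69 over the 45 pairs of genes across the 9 mice, from -0.06 for Clic6 with Otx2 to 0.95 for Kcne2 with Slc4a5. Slc4a5 followed the mean of the other 9 genes most closely (r = 0.95), and Otx2 least (r = 0.44). These points share their libraries and are given as a description.

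Of 17654 other genes with a mean RPKM of at least 1, the 8 whose deviations were most like the mean of the 10 genes over the 9 mice were Paf1 (r = 0.99), Rp9 (0.98), Gm23956 (0.98), Gm26811 (0.98), RP24-298N7.11 (0.97), RP23-325D10.3 (0.97), Cstf2t (0.97), and 9530068E07Rik (0.96). Their log2 fold changes between the feb and ICH groups ranged from -0.33 to 0.48, and none was called. Paf1, Rp9, Gm26811, and RP23-325D10.3 were higher in every feb mouse than in every ICH mouse, and 9530068E07Rik was lower. Of the 29025 genes tested, 2043 were higher and 2941 lower in this way. Gm23956 rests on 2 to 18 reads and was called higher in ICH against sham (log2 fold change 1.65, standard error 0.45). In the correlation of deviations, 1500015O10Rik, which encodes the secreted peptide augurin, ranked 27 with r = 0.93. The coagulation factor gene F5 ranked 45, and the sulfate transporter gene Slc13a4 ranked 66. These 3 were the highest of the choroid plexus genes that were listed separately, and are named after their ranks were seen. Of the 25 genes of that list of 38 that had a mean RPKM of at least 1, 16 had r above 0.5 and 3 were below 0, with a median of 0.56 and a range of -0.79 (Pcp4l1) to 0.93. An r above 0.5 was not rare among all 17654 genes, since Spint2 of that list held only rank 2513 with r = 0.52.

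The genes did not keep the same ratio to Ttr. Kcne2 had 4.41 to 8.05 RPKM per 1000 RPKM of Ttr in ICH mice and 5.78 to 7.85 in feb mice, so both genes were low to a like degree in the same mice. The ratio of Slc4a5 to 1000 RPKM of Ttr was 1.53 to 2.35 in ICH mice and 2.30 to 4.40 in feb mice, and that of Folr1 was 3.48 to 4.80 and 2.90 to 10.9, with overlap in both genes. Clic6 was at 14.3 to 22.9 in ICH mice and 78.1 to 201 in feb mice, and Kcnj13 at 6.05 to 8.32 and 40.6 to 109.5, without overlap. Kl, Sostdc1, and Otx2 likewise had higher ratios in all feb mice than in all ICH mice. Aqp1 did so by a narrow gap, with 1.27 to 2.08 in ICH mice and 2.09 to 7.73 in feb mice. Its lowest feb ratio, in feb replicate 2, rests on 7 reads. A straight line of RPKM against that of Ttr over the 9 mice met a Ttr of 0 at an RPKM of 2.59 for Kcnj13, 5.46 for Clic6, and 0.600 for Otx2, which is 51.6%, 45.8%, and 67.4% of their ICH means. For Kcne2, Slc4a5, and Folr1 the line met it at 6.41%, 7.55%, and 1.38% of the ICH mean.

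**Figure D3:**
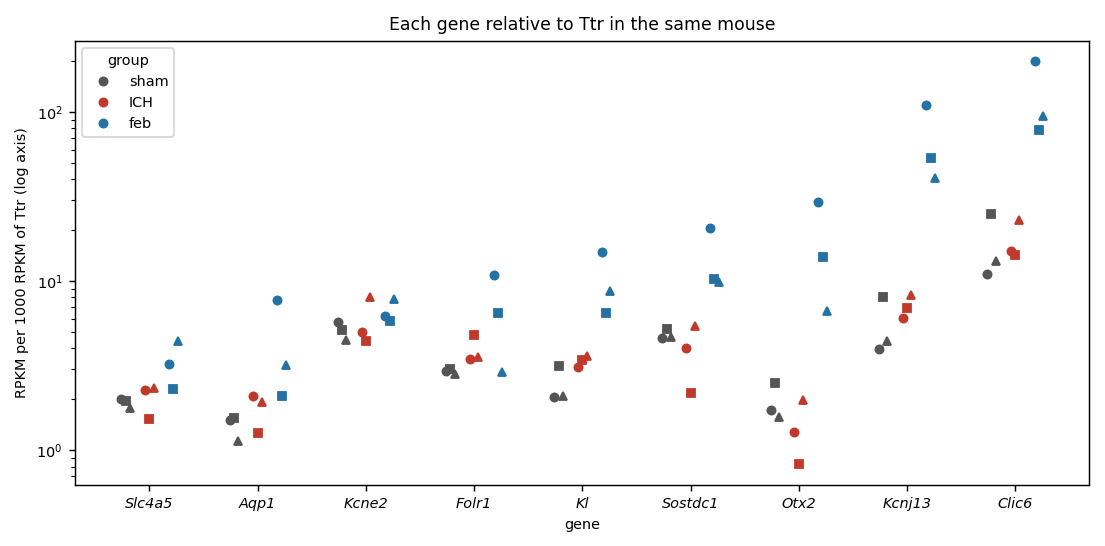
RPKM of each of the 9 other genes per 1000 RPKM of Ttr in the same mouse, on a log axis, by group, with replicates 1, 2, and 3 as circle, square, and triangle. The feb mice lie within the range of the ICH mice for Kcne2 and far above it for Clic6 (78.1 to 201 against 14.3 to 22.9).

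A separate list of 38 further choroid plexus genes was taken from general knowledge of the tissue, with earlier results of these data known, and all 38 were tested. In feb against ICH, 18 of them were called, all lower in the feb group, where 1.05% of all genes tested were called lower. Their median log2 fold change was -1.05, smaller in size than that of the 10 genes. By role, 3 of 13 transport and barrier genes, 6 of 10 genes of secreted proteins and receptors, and 9 of 15 genes of structure and identity were called. Without ICH replicate 3, 25 of the 38 were called, and with a pseudocount of 1, 7. None of the 38 passed adjustment in limma or voom, while 26 in limma and 27 in voom had an unadjusted p under 0.05. Over all genes tested, 11.1% had an unadjusted p under 0.05 in limma.

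The 8 most abundant of the 38 genes were described whatever their change. Enpp2 encodes autotaxin, which oligodendrocytes also hold, and its RPKM was 103, 113, and 91.6 in ICH mice and 22.5, 38.2, and 20.7 in feb mice. These groups did not overlap, and the log2 fold change was -1.96 (standard error 0.31). Igf2, a growth factor of plexus and meninges, had 12.8, 8.47, and 5.52 in ICH mice and 3.02, 4.201, and 4.42 in feb mice (log2 fold change -1.12, standard error 0.40). Igfbp2, an IGF-binding protein, was called as well, at -1.32 (standard error 0.41), but feb replicate 2 (7.36) lay above ICH replicate 3 (7.19). Col9a3, a collagen gene, was at -0.99 (standard error 0.16), just short of 2-fold, without overlap. The other 4 were not called. Ace, angiotensin-converting enzyme, had -0.83 (standard error 0.34), the anion exchanger gene Slc4a2 had -0.27 (standard error 0.19), and Cab39l had -0.35 (standard error 0.19). Pcp4l1, which neurons also hold, averaged 71.5 ± 18.4 RPKM (SD, n = 3) for ICH and 75.8 ± 15.4 (SD, n = 3) for feb.

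A few of the 38 genes were singled out after their values were seen. F5 had the lowest log2 fold change (-2.97, standard error 0.37), with an RPKM of 4.08, 6.18, and 2.64 in ICH mice and 0.351, 0.389, and 0.584 in feb mice. Cldn2, the claudin of the plexus tight junction, had 1.499, 2.47, and 0.769 in ICH mice and 0.170, 0.0953, and 0.130 in feb mice. The mean of Cldn2 was 8.36% of the ICH mean in the feb group, close to the values of Kcne2 and Ttr. The feb values of Cldn2 rest on 8 to 15 reads, so this share is rough. Msx1, a homeobox gene of the dorsal midline, had an ICH mean of 0.980 ± 0.332 (SD, n = 3) and a feb mean of 0.310 ± 0.0199 (SD, n = 3). Of the 38 genes, 2 had log2 fold changes above 0, Pcp4l1 (0.09, standard error 0.21) and Car14, a carbonic anhydrase. Car14 had 4.10, 2.66, and 3.81 in ICH mice and 5.42, 5.03, and 4.603 in feb mice, all higher. It was the only 1 of the 38 higher without overlap, and it was not called (log2 fold change 0.52, standard error 0.25).

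In feb against sham, 12 of the 38 were called lower and 0 higher, and 0.613% of all genes tested were called lower. Without sham replicate 1 it was 7. In ICH against sham, 0 of the 38 were called in limma, 1 had an unadjusted p under 0.05, and voom called 0 with 4 at an unadjusted p under 0.05. Over all genes tested, limma called 2.53% in either direction, so 0 of 38 shows little, and 12.3% had an unadjusted p under 0.05. Without ICH replicate 3, 1 of the 38 was called, and without sham replicate 1 it was 0 in limma, with 2 at an unadjusted p under 0.05.

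**Figure D4:**
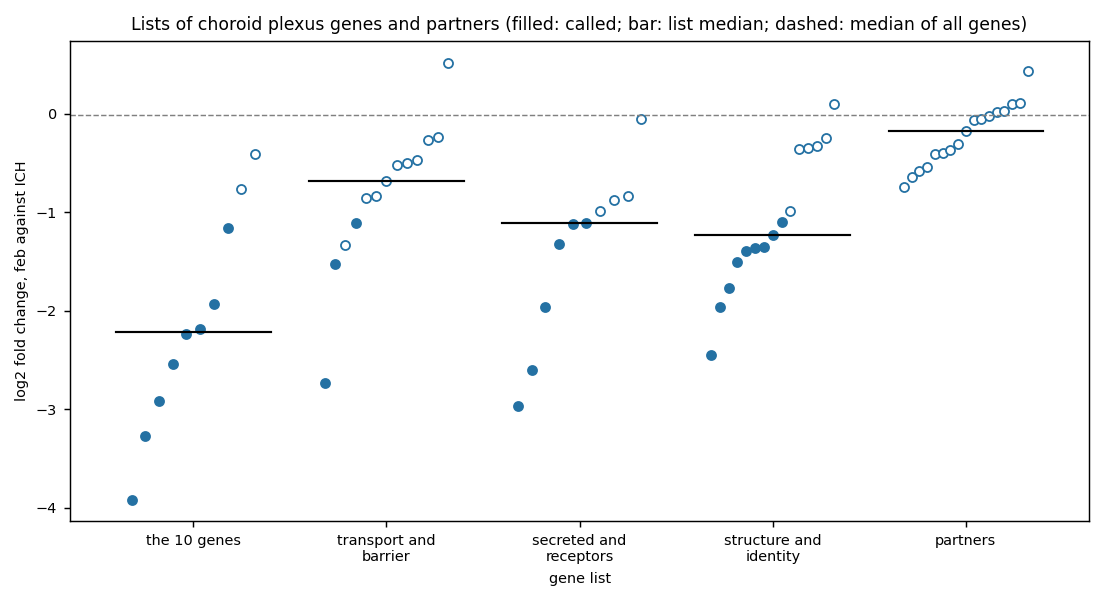
Log2 fold change of feb against ICH for the 10 genes, the 3 role groups of the 38 further choroid plexus genes, and the 17 partner genes, with called genes filled, list medians as bars, and the median of all genes tested dashed. The medians are -2.21, -0.68, -1.11, -1.23, and -0.18 from left to right.

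Genes whose proteins work with those of the 10 genes were listed as partners, and 0 of the 17 were called in limma or voom in any comparison. In limma, 6 had an unadjusted p under 0.05 in feb against ICH, 1 in ICH against sham, and 3 in feb against sham. Of all genes tested, 11.1%, 12.3%, and 8.54% did in the same order. Only 1.05% of all genes tested were called lower in feb against ICH, so 0 calls among 17 genes show little. Without sham replicate 1, 0 were called in either comparison with the sham group in limma, with 2 at an unadjusted p under 0.05 in each. Kcnq1 and Kcna3 encode pore-forming subunits that pair with Kcne2, and their log2 fold changes between the feb and ICH groups were 0.10 (standard error 0.30) and -0.06 (standard error 0.20). Slc46a1 and Slc19a1, the other folate transporters, both had 0.02 (standard errors 0.09 and 0.16). Of the most abundant partners, Atp1b1, a sodium pump subunit, had -0.02 (standard error 0.08) in feb against ICH. Car2, a carbonic anhydrase that oligodendrocytes hold in large amounts, had -0.64 (standard error 0.28), Slc12a2, the cotransporter NKCC1, had -0.31 (standard error 0.12), Lrp6, a wnt coreceptor, had -0.18 (standard error 0.08), and Dio2, a thyroxine deiodinase, had 0.10 (standard error 0.23). Several of these genes are also expressed in neurons and glia, and the part of the plexus in their values was not tested.

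Markers of other cells near the plexus were counted beside these results. Of 8 ependymal genes, which mark the ciliated lining of the ventricles, 0 were called in feb against ICH in limma or voom, and 0 had an unadjusted p under 0.05 in limma. Over all genes tested, 1.05% were called lower and 11.1% had an unadjusted p under 0.05, so 0 calls in short lists show little. The summed RPKM of the ependymal genes was 14.3 to 22.6 in sham mice, 16.7 to 21.4 in ICH mice, and 15.1 to 23.95 in feb mice, with overlap throughout. Of 8 genes of meningeal and stromal fibroblasts, 1 was called lower in the feb group, and the sums were 6.82 to 19.0, 8.26 to 17.3, and 5.39 to 10.1 in the same order. All 8 had log2 fold changes below 0 in feb against ICH (median -0.71) and in feb against sham (median -0.46). Of the 29025 genes tested, 15153 and 11970 were below 0 in the same comparisons. Of 5 red blood cell genes, the 4 globin genes were called lower and Alas2 was not (log2 fold change 0.47, standard error 0.34), with sums of 32.3 to 40.6 in sham mice, 26.7 to 124 in ICH mice, and 17.1 to 21.6 in feb mice. The sums of the fibroblast genes overlapped between the groups, and those of the red blood cell genes were lower in all feb mice than in all other mice. The part of these cells in the result was not tested. ICH replicate 1 alone gave the sum of 124, and the other ICH mice had 26.7 and 27.7.

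Of 6 endothelial genes and 6 genes of microglia and macrophages, 0 were called in feb against ICH in limma or voom, and 3 of each list had an unadjusted p under 0.05 in limma. Over all genes tested in this comparison, 1.05% were called lower and 11.1% had an unadjusted p under 0.05 in limma. The sums of the endothelial genes overlapped in all groups, and those of microglia and macrophages were 15.6 to 22.99 in ICH mice and 11.3 to 13.4 in feb mice. Of the 4 cortical genes, 3 were called lower in the feb group than in the ICH group. All 4 were called higher in the ICH group than in the sham group. Over all genes tested, 2.53% were called in either direction in ICH against sham. Without sham replicate 1, all 4 cortical genes were also called higher in ICH against sham. The 6 striatal, 5 hippocampal, and 7 thalamic genes had 0 called in feb against ICH in limma or voom, and 0 with an unadjusted p under 0.05 in limma. With 1.05% of all genes called lower, 0 calls in short lists show little. All 6 striatal genes had log2 fold changes below 0 (median -0.54), and all 7 thalamic genes were above 0 (median 0.76). Of the hippocampal genes, 4 were above 0 and 1 was below (median 0.45). Of the 29025 genes tested, 13869 were above 0 and 15153 below. The 5 hindbrain genes did not pass the filter. Rpe65 and Rgr, genes of the retinal pigment epithelium, in which Ttr, Kcnj13, and Otx2 are also expressed, were at an RPKM of at most 0.237 and 0.0228. Best1 and Rlbp1, which other brain cells hold, were not called in limma, at log2 fold changes of 0.31 (standard error 0.30) and -0.9995 (standard error 0.30), the latter without overlap and just short of 2-fold. In voom, 1 gene of that list was called. The pineal genes Asmt, Aanat, and Tph1 summed to at most 0.415. The part of regional tissue in these results was not tested.

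**Figure D5:**
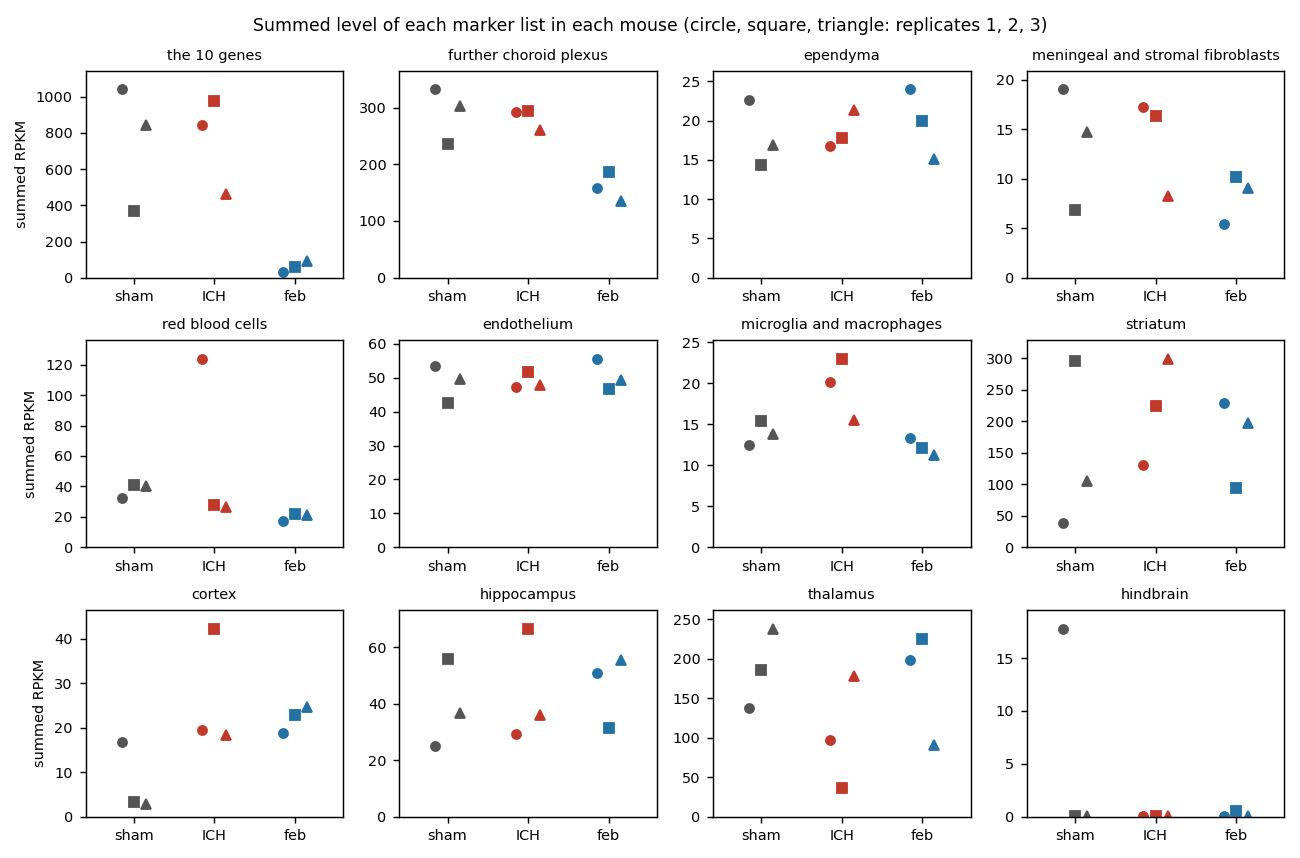
Summed RPKM of the 10 genes, of the 38 further choroid plexus genes, and of 10 marker lists in each mouse, by group, with replicates 1, 2, and 3 as circle, square, and triangle. The feb mice are separate from all others in the first 2 panels (33.9 to 92.1 and 135 to 186) and in red blood cells (17.1 to 21.6), and overlap the others in ependyma. Sham replicate 1 stands apart in the hindbrain genes (17.8), and feb replicate 2 is next at 0.557. Ttr is most of the first sum, and Enpp2 and Pcp4l1 are the most abundant genes of the second. Enpp2 alone was at 91.6 to 113 in ICH mice and 20.7 to 38.2 in feb mice.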

How the data were processed

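RNA of mouse brain from 9 mice was measured, 3 per group, and groups were taken from the sample labels. The authors trimmed the reads with Trimmomatic (version 0.36), built 1 consensus read per UMI group, aligned to GRCm38, assigned reads to exons by featureCounts (Subread 1.5.1), and deposited RPKM values, 1 column per mouse. The annotation release is not given in the sources used here. The deposited RPKM values were whole multiples of 1 read in 100% of cases (within 0.01 reads), so the reads behind them were recovered. Counting intervals cover counting error only. Within groups, every pair of mice differed by more than sampling noise (chi-square per gene at least 13.97). Whether the mice were housed or processed separately is not stated, so p-values measure the spread between these samples.

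Values were tested as log2(RPKM + 0.1) by limma 3.58.1 in R 4.3.3 (moderated variance with trend), keeping genes that reached 0.1 RPKM in 3 or more samples, with all 9 mice in the fit and Benjamini-Hochberg adjustment over all genes tested. Calls needed p under 0.05 and a fold change over 2. On simulated reads for 29056 genes with 200 changed 4-fold between feb and ICH, 96.5% were called. Where no change was simulated, 1.30% of genes were called. The simulated spread was 1 fixed setting for all genes, not matched to these mice. The share called is therefore no estimate of power in these data. The genes and lists were chosen with earlier results of these data known. Named genes were the 10 genes, the 8 most abundant further choroid plexus genes, the 6 most abundant partners with Kcnq1, Kcna3, Slc46a1, and Slc19a1, and the 8 genes most alike over the mice. The values of 1 gene named by this rule are not reported here. Alternatives used a pseudocount of 1 or 0.01, left out the filter or raised it to 1 RPKM, set sample medians equal, or used voom on the recovered reads, the replicate number as a block, or 8 mice with each left out in turn. Tables and figures were made with Python 3.11.15, pandas 2.3.3, and matplotlib 3.10.9.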

Additional observations from a re-analysis of the deposited data

How the results depend on the processing

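Between the feb and ICH groups, 7 or 8 of the 10 genes were called in every setting, and between the ICH and sham groups 0 in every setting. Between the feb and sham groups, 7 to 9 were called, except with a pseudocount of 1, which gave 4. With each mouse left out in turn, 7 to 8, 0 to 0, and 7 to 9 of the 10 genes were called, and of the 38 further genes 15 to 25, 0 to 1, and 7 to 17, in the order feb against ICH, ICH against sham, and feb against sham. With a pseudocount of 1, 7 further genes were called between feb and ICH and 4 between feb and sham, since genes at a low RPKM cannot reach 2-fold on that scale. Of 2007 recomputed log2 fold changes of named genes, 18 dropped out of the criteria, 15 entered them, and no called gene changed its direction. Over all genes tested, 706, 735, and 639 genes were called in the same order, against 128, 158, and 91 with a pseudocount of 1, 287, 346, and 263 at an RPKM of at least 1, and 735, 1299, and 1150 without sham replicate 2. Without feb replicate 2, 1030 were called between feb and sham. With equal medians, 296 genes were higher and 443 lower between ICH and sham (423 and 312 before), and 300 and 252 between feb and sham (461 and 178 before), while the median of the 10 genes moved from -2.08 to -2.19 between feb and sham. Replicate numbers are shared between the groups in the labels only. Same-numbered mice had correlations of their deviations from -0.13 to 0.02, and no mouse correlated best with its own number. With the replicate block, 8, 0, and 7 of the 10 genes and 18, 0, and 12 of the further genes were called. Depth limits the values of Kcne2, Aqp1, Slc4a5, Folr1, and Sostdc1 in the feb mice, which rest on 7 to 46 reads.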
